A study of Mus musculus with 4 samples.

Results

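The genes described here are 10 that encode PARP family proteins, a partner of Parp9 or a hydrolase of free ADP-ribose. They are Parp1, Parp2, Parp3, Parp9, Parp10, Parp11, Parp12, Parp14, Dtx3l and Nudt5. They were found by gene symbol, and all 10 were present among the 17762 genes listed in at least 1 library. The set was chosen by gene family and from earlier results of the same KO against WT comparison. Their differences between genotypes are therefore given as a description, and no p-value of a single member is printed. Calls among the 10 by a test, given below, are a description too and not support. Polyadenylated RNA was sequenced from adenomas labelled as colon, taken from C57BL/6 mice aged 110 days. Every mouse carried ApcMin, a mutant allele of the tumour suppressor gene Apc under which intestinal tumours form. There were 2 libraries of ApcMin Strap WT (WT) and 2 of ApcMin Strap KO (KO). The series text writes the KO genotype as StrapIEKO without saying which cells lose the gene or what drives the deletion. The labels do not tell whether a library came from 1 animal or from pooled adenomas.

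ADP-ribosylation is the transfer of ADP-ribose from NAD+ onto proteins or nucleic acids. Parp1 and Parp2 build chains of it at broken DNA, while most of the other PARP enzymes add single units. Several of the single-unit enzymes, with the ubiquitin ligase Dtx3l that binds Parp9, are known as genes induced by interferon and as antiviral factors. Free ADP-ribose, released when the marks are erased, is split by Nudix hydrolases such as Nudt5.

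Library totals lay between 14084831 and 15640941 expected counts, the read counts per gene estimated by the authors. Strap was at 157 and 112 CPM in WT replicates 1 and 2 and at 20.5 and 24.8 CPM in KO replicates 1 and 2, where CPM is the share of scaled counts taken by a gene (TMM scaling). Summed marker genes of the epithelium lay between 10518 and 13944 CPM. Marker genes of the colon summed to between 0.205 and 5.71 CPM, with 3 of 5 unlisted in each replicate 1 and 4 of 5 unlisted in KO replicate 2, while those of the small intestine summed to between 7243 and 13707 CPM. Genes of T and natural killer cells summed to 51.9 and 36.7 CPM in WT and to 31.4 and 283 CPM in KO, and all 10 of them were listed in every library. General leukocyte genes, 4 in all, summed to 19.2 and 20.5 CPM in WT and to 6.63 and 53.4 CPM in KO, so both lists were highest in KO replicate 2. Fibroblast genes summed to 12.3 CPM in WT replicate 1 and to between 1.43 and 2.73 CPM in the other 3 libraries, and endothelial genes to 39.5 CPM against 0.342 to 1.62 CPM, so both were highest in WT replicate 1. Xist, expressed from the inactive X chromosome, stood at 968 and 197 CPM in the replicates 1 of WT and KO and at 0.954 CPM or less in the replicates 2. The Y-linked gene Ddx3y was unlisted in the replicates 1 and stood at 39.1 and 33.3 CPM in the replicates 2, so the replicate number followed these sex-linked genes in both genotypes. The libraries are bulk samples, so a change in the share of a cell type and a change of RNA per cell cannot be told apart.

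All 10 genes were measured well enough to be tested, and the fitted mean of each was higher in KO. Their median log2 fold change, KO minus WT, was 0.80, beside 0.00 over the 12769 genes tested. By CPM, 7 of the 10 had each KO library above each WT library, an order seen in 25.5% of all genes tested, and the opposite order, seen in 24.6%, occurred in 0 of the 10. At least 2-fold higher were 4 of the 10, against 3.56% of all genes, and at least 4-fold higher was 1, Nudt5, against 0.728%. The edgeR quasi-likelihood test, at a Benjamini-Hochberg adjusted p under 0.05, called 0 of the 10, against 0.00783% of all genes called higher. At an unadjusted p under 0.05 it marked 6 of the 10, against 7.08% of all genes marked higher (904, with 1109 more marked lower). DESeq2 called 5 of them, Parp9, Parp10, Parp12, Parp14 and Nudt5. Of the genes it tested, it called 1.77% higher (235), with 432 more called lower. Since the genes were chosen on this comparison, these counts describe the set and support nothing further.

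Nudt5 had the widest gap between genotypes of the 10. Its product splits ADP-ribose into AMP and ribose 5-phosphate, and in the nucleus it is known for a route from ADP-ribose to ATP. Nudt5 (chromosome 2, 5845034 to 5870820 in mm10) stood at 8.81 and 11.7 FPKM in WT and at 41 and 52.6 FPKM in KO, where FPKM is the authors' expression level per kilobase of transcript, adjusted for depth. The groups did not overlap: the lower KO library was 3.51 times the higher WT library. The mean was 10.2 ± 2.04 FPKM in WT and 46.8 ± 8.18 FPKM in KO (SD, n = 2 each), and the fitted log2 fold change was 2.22 (SE 0.24). It stood 77th from the top of 12769 genes by that value. Within each genotype replicate 2 was above replicate 1, by 1.33 times in WT and 1.28 times in KO. Nudt5 had 208 and 272 expected counts in WT and 984 and 1129 in KO, and without KO replicate 2 the log2 fold change was 2.10.

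The start of Nudt5 lies head to head with Cdc123, a gene for an assembly factor of the translation initiation machinery, and their annotated spans overlap by 144 bases, from 5845034 to 5845177. No source used here tells whether the libraries kept strand, so reads from that overlap may belong to either gene. Cdc123 was at 35.8 and 43.8 FPKM in WT and 44.5 and 48.6 FPKM in KO (0.26, SE 0.20, edgeR adjusted p = 0.552). Sec61a2, whose end lies just past that of Nudt5 on the other strand and which encodes a form of the protein-conducting channel subunit, was at 9.62 and 7.39 FPKM in WT and 11 and 15.8 FPKM in KO (0.68, SE 0.26, edgeR adjusted p = 0.299). Upf2, a nonsense-mediated decay gene and the third tested gene within 100 kb, had a log2 fold change of 0.06 (SE 0.19). None of these 3 neighbours passed the test, though Sec61a2 had an edgeR unadjusted p of 0.0417. By CPM each KO library was above each WT library for Cdc123 and Sec61a2, an order seen in 25.5% of all genes tested. The groups overlapped for Upf2. The window of 300 bases at the Nudt5 start, from RefSeq on GRCm38.p6, held 20 CpG dinucleotides, against a median of 7 over 32851 such windows. Its outermost part, 51 bases with no exon annotated in GENCODE M21, lies inside the span of Cdc123 and is shown as the stretch upstream of the gene with the widest gap. It lies on the plus strand at chr2:5844784-5844834, with CpG in capitals.
Nudt5: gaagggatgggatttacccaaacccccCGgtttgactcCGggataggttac

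**Figure D1:**
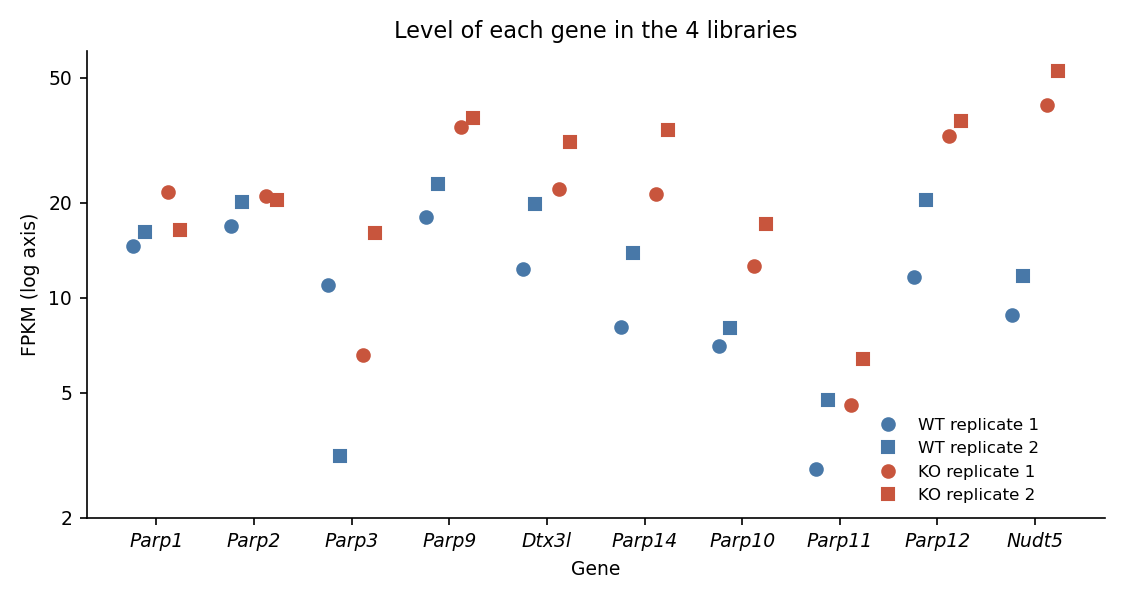
FPKM of the 10 genes on a log axis, with 1 point for each library, WT in blue, KO in red, circles for replicates 1 and squares for replicates 2. Both KO points of Nudt5 (41 and 52.6) stand above both WT points (8.81 and 11.7), while the points of Parp3 interleave.

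Parp9, Dtx3l and Parp14 are neighbours on chromosome 16. Parp9 encodes a protein with macrodomains, modules that bind ADP-ribose, and works as a partner of the ubiquitin ligase Dtx3l. Parp9 (35938470 to 35972621) stood at 18 and 23 FPKM in WT and 34.9 and 37.3 FPKM in KO. Dtx3l (35926515 to 35939027) stood at 12.3 and 19.8 FPKM in WT and 22.2 and 31.3 FPKM in KO. Neither gene overlapped between the groups, but the gap was narrower for Dtx3l, whose lower KO library was 1.12 times its higher WT library, than for Parp9 at 1.52 times. The log2 fold changes were 0.85 (SE 0.21) for Parp9 and 0.76 (SE 0.29) for Dtx3l. The level of Dtx3l was 0.686 and 0.863 of that of Parp9 in WT and 0.637 and 0.841 in KO, so the ratio was lower in the replicate 1 of each genotype and its ranges overlapped between genotypes.

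The spans of Parp9 and Dtx3l overlap head to head by 558 bases, and the deposited expected counts of both had fractional parts in all 4 libraries, while those of the other 8 genes were exact whole numbers. With which gene any reads were shared was not tested. Parp14, a macrodomain enzyme that adds single ADP-ribose units and is known as a cofactor of Stat6, lies 55 kb from Dtx3l (35831892 to 35871518). It stood at 8.08 and 13.9 FPKM in WT and 21.4 and 34.2 FPKM in KO, with means of 11 ± 4.14 and 27.8 ± 9.06 FPKM (SD, n = 2 each). The groups did not overlap, yet replicate 2 was above replicate 1 by 1.72 times in WT and 1.6 times in KO. The log2 fold change of Parp14 was 1.36 (SE 0.34), the second highest of the 10 genes, and 1.05 without KO replicate 2.

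The other tested genes within 100 kb of this trio did not pass the edgeR test. They were Slc49a4 (log2 fold change 0.38, SE 0.21), Hspbap1 (0.54, SE 0.33), Kpna1 (-0.31, SE 0.21), Wdr5b (0.17, SE 0.48), Fam162a (-0.72, SE 0.66) and Ccdc58 (0.72, SE 0.28). Kpna1, a nuclear import receptor gene next to Parp9, was at 17.9 and 14.1 FPKM in WT and 11.9 and 13.3 FPKM in KO, so each KO library was below each WT library. Ccdc58 was at 15.2 and 17.1 FPKM in WT and 30.2 and 24.2 FPKM in KO, with an edgeR unadjusted p of 0.0394 and an adjusted p of 0.297. By CPM each KO library was above each WT library for Slc49a4, Hspbap1 and Ccdc58, an order seen in 25.5% of all genes tested. The order was the opposite for Kpna1, and the groups overlapped for Wdr5b and Fam162a. The log2 fold changes of the 6 neighbours lay on both sides of 0.

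Parp10, Parp11 and Parp12 encode enzymes that add single ADP-ribose units and lie apart from one another or on different chromosomes. Parp12, a zinc finger enzyme known for restricting viruses, stood at 11.6 and 20.4 FPKM in WT and 32.6 and 36.4 FPKM in KO. The groups did not overlap, and the KO libraries were closer together than the WT libraries. Its means were 16 ± 6.29 and 34.5 ± 2.67 FPKM (SD, n = 2 each), and the log2 fold change was 1.14 (SE 0.30). Parp10, first described as a partner of Myc, stood at 7 and 7.99 FPKM in WT and 12.6 and 17.1 FPKM in KO. Its groups did not overlap either, and the log2 fold change was 1.0 (SE 0.21). Parp11, the lowest of the 10 genes by mean FPKM in both genotypes, stood at 2.86 and 4.72 FPKM in WT and 4.57 and 6.37 FPKM in KO. By FPKM its KO replicate 1 was level with WT replicate 2, at 0.968 times, while by CPM (10.4 and 17.1 in WT, 18 and 22.4 in KO) the groups just separated. Its log2 fold change was 0.55 (SE 0.34).

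The start regions of these genes were read for sequence features that the choice of genes did not use. The RefSeq table of GRCm38.p6 held 8 windows for 7 of the 10 genes, each from 250 bases before a start to 50 after it. Parp9, Parp10 and Parp14 had no entry. Both strands were searched for GAAANNGAA, the core of the interferon-stimulated response element, for TTCNNNGAA, the gamma-activated site, and for TATAAA, the TATA box. Of all 32851 windows 8.56% held the first, 8.3% the second and 13.6% the third. Among the 8 windows, 1 of the 2 of Parp11 held the first and the second, which overlap by 3 bases, and 0 held the third. The match to the first lies on the opposite strand from 43 to 35 bases before the start, and the match to the second from 37 to 29 bases before it. A match is a run of letters and not a measured binding site, and a window without one says only that these letters are not in it. CpG dinucleotides numbered 46 in the window of Parp12 and 5 in that Parp11 window, the extremes of the 8.

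The exon-free stretches of 3 of these windows are shown to set the CpG-rich start of Parp12 and the region upstream of Dtx3l, which lies inside Parp9, beside the Parp11 start that holds the matches. For Parp11 (chr6:127446590-127446839, plus strand) capitals mark the overlapping matches. For Parp12 (chr6:39118350-39118472, minus strand) and Dtx3l (chr16:35939207-35939277, minus strand) capitals mark CpG.
Parp11: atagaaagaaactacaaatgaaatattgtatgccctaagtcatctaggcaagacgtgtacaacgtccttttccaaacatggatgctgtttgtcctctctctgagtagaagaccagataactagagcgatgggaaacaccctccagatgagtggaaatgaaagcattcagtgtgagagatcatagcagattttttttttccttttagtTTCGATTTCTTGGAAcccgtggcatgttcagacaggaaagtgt
Parp12: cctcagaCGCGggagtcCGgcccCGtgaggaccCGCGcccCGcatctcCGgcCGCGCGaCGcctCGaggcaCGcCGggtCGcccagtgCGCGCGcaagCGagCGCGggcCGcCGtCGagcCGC
Dtx3l: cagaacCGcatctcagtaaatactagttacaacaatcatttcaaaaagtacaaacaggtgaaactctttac

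The enzymes that act at DNA breaks, Parp1, Parp2 and Parp3, had smaller or less even differences. Parp1, which makes most of the poly(ADP-ribose) after DNA damage, stood at 14.6 and 16.2 FPKM in WT and 21.7 and 16.4 FPKM in KO, so it was high in KO replicate 1 alone. By CPM the groups overlapped (54.9 and 60.7 in WT, 88 and 59.6 in KO), and the log2 fold change of 0.35 (SE 0.25) became 0.04 without KO replicate 1. Parp2, its closest relative in break repair, stood at 16.9 and 20.1 FPKM in WT and 21 and 20.5 FPKM in KO (log2 fold change 0.20, SE 0.21), and its groups overlapped by CPM. Parp3, an enzyme that adds single units at double-strand breaks, stood at 11 and 3.14 FPKM in WT and 6.59 and 16 FPKM in KO. Its values interleaved, the WT libraries differing by more than the group means, and its log2 fold change of 0.68 (SE 0.64) became -0.01 without KO replicate 2 and 1.84 without WT replicate 1. Parp3 was highest in KO replicate 2, where the lymphocyte genes were also highest. By FPKM that library was also the highest for Parp9, Parp10, Parp11, Parp12, Parp14, Dtx3l and Nudt5. The part of that library's cell content in the values of Parp3 and of these other genes was not tested.

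By FPKM, which allows levels to be compared between genes, the order of the 10 differed between the genotypes. In WT the highest were Parp9 (mean 20.5 FPKM), Parp2 (18.5), Dtx3l (16.1), Parp12 (16) and Parp1 (15.4). From Parp9 down to Parp1 each range over the libraries overlapped the next, but Parp1 did not overlap Parp14. Parp14 (11) and Nudt5 (10.2) came sixth and seventh, also overlapping, before Parp10 (7.5), Parp3 (7.05) and Parp11 (3.79). In KO Nudt5 was first at 46.8 FPKM, with a range above that of Parp9 (36.1). Parp9, Parp12 (34.5), Parp14 (27.8) and Dtx3l (26.8) followed, each overlapping the next. Parp2 (20.8) and Parp1 (19) came sixth and seventh by mean. Dtx3l did not overlap Parp2, but the range of Parp14 reached down into that of Parp1.

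**Figure D2:**
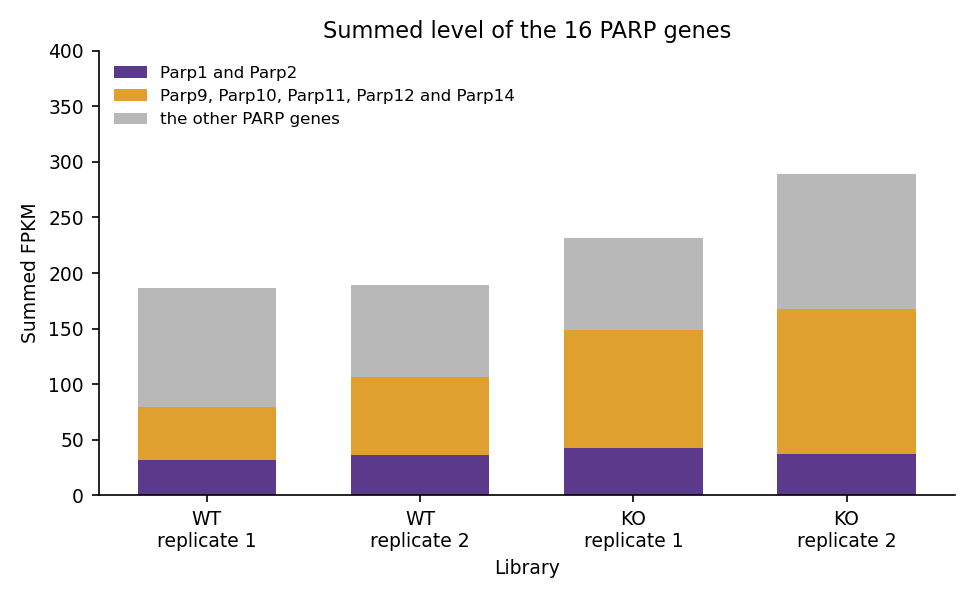
Summed FPKM of the 16 PARP genes in each library, stacked by Parp1 with Parp2, the 5 genes Parp9, Parp10, Parp11, Parp12 and Parp14, and the other 9. The block of 5 genes is 47.5 and 70.1 FPKM high in WT and 106 and 131 FPKM in KO.

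The 8 PARP genes above and 8 more (Parp4, Parp6, Parp8, Parp16, Tiparp, Zc3hav1, Tnks and Tnks2) are the 16 PARP genes considered here. Their summed level was 186 and 189 FPKM in WT and 232 and 289 FPKM in KO. Parp1 and Parp2 together gave 16.9% and 19.2% of that sum in WT and 18.4% and 12.8% in KO, so that their share was lowest in KO replicate 2. Parp9, Parp10, Parp11, Parp12 and Parp14, a grouping made with their values known, gave 25.5% and 37% in WT and 45.8% and 45.5% in KO. The remaining 9 genes summed to 107 and 83.1 FPKM in WT and 83.1 and 121 FPKM in KO, and showed no separation of the genotypes.

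The 8 further PARP genes were listed for their family after the 10 had been chosen with this comparison known. A contrast between the 8 and the 10 is thus partly set by that choice. Of the 8, 4 were higher and 4 lower, and their log2 fold changes had a median of 0.03. None passed the edgeR test over all genes, 1 had an unadjusted p under 0.05, and DESeq2 called 0. That 1 gene was Tnks, which encodes tankyrase 1, an enzyme that marks Axin for destruction in Wnt signalling. Tnks stood at 9.56 and 5.35 FPKM in WT and 2.81 and 4.8 FPKM in KO (log2 fold change -0.96, SE 0.36, edgeR adjusted p = 0.296). Its groups did not overlap, but WT replicate 1 stood well above the other 3 libraries. Its relative Tnks2 pointed the other way, at 29.8 and 22.1 FPKM in WT and 27.6 and 37.4 FPKM in KO (0.35, SE 0.25). Parp4, the PARP of vault particles, had a log2 fold change of -0.44 (SE 0.30). Zc3hav1, which encodes the antiviral zinc finger protein ZAP, stood at 16.8 and 18.5 FPKM in WT and 18.3 and 24.4 FPKM in KO (0.28, SE 0.20).

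**Figure D3:**
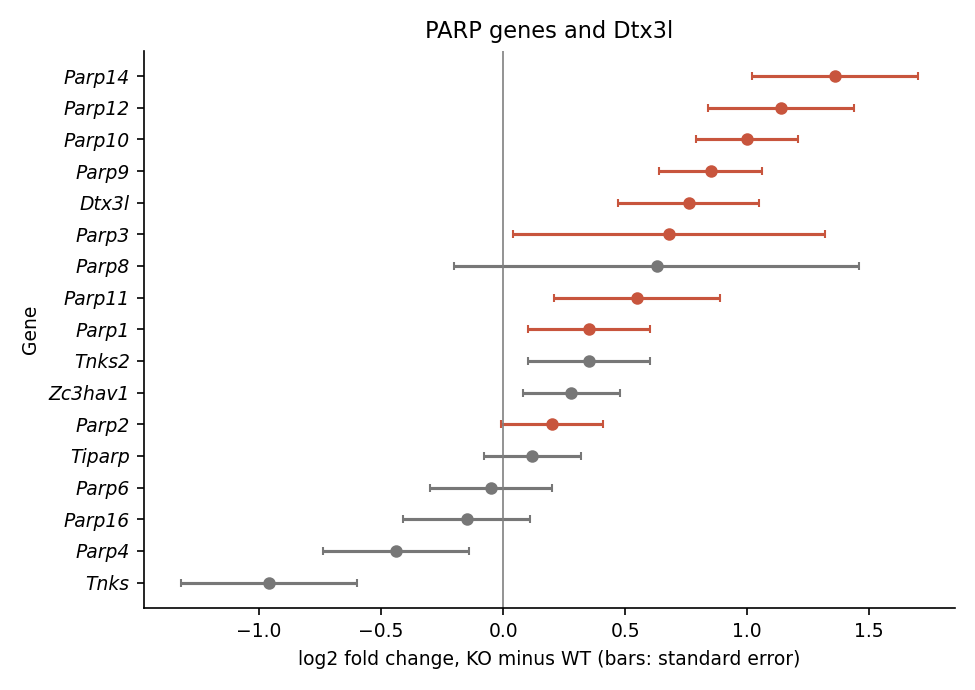
Log2 fold change, KO minus WT, of the 16 PARP genes and Dtx3l, with standard errors from edgeR as bars, the genes described first in red and the 8 further PARP genes in grey. Parp14 is at the top (1.36) and Tnks at the bottom (-0.96).

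Genes that read or remove ADP-ribose marks were spread on both sides of 0. Of 15 listed 14 were tested, 9 higher and 5 lower, and the median was 0.18 on the log2 scale. No gene of this list was called by edgeR, 1 had an unadjusted p under 0.05 and DESeq2 called the same 1, H2afy2. H2afy2, now named Macroh2a2, encodes a macrodomain histone and stood at 2.87 and 1.39 FPKM in WT and 0.11 and 0.27 FPKM in KO (log2 fold change -3.48, SE 0.79, edgeR adjusted p = 0.197). Its relative H2afy, or Macroh2a1, was far more abundant, at 59 and 76.9 FPKM in WT and 83.4 and 69.6 FPKM in KO, and its groups overlapped (0.21, SE 0.25). Parg, the main enzyme that cuts poly(ADP-ribose) chains, was at 10.3 and 8.81 FPKM in WT and 8.92 and 8.55 FPKM in KO (-0.09, SE 0.21). Gdap2, a macrodomain gene, had a log2 fold change of 0.55 (SE 0.23). Hpf1, the cofactor that directs Parp1 and Parp2 to serine, was at 0.40 (SE 0.27). Macrod2, an eraser of single units, was at -0.73 (SE 0.50). Among the other deltex ligases the 4 genes gave a median of 0.16, 2 of them higher and 2 lower, and Dtx3 had the smallest p with a log2 fold change of -1.47 (SE 1.01). No deltex gene had an unadjusted p under 0.05 in edgeR or a call in DESeq2. Of the 6 ectoenzyme genes Art1 to Art5, 1, Art2a, was tested, with a log2 fold change of 0.06 (SE 0.76).

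Nudt5 ranked higher within the Nudix family in KO than in WT. Because it was chosen with this comparison known, its standing apart from the family is a description only. By FPKM it was in places 14 and 13 of 23 Nudix genes in the WT libraries and in places 5 and 2 in KO replicates 1 and 2. Of the 22 others 20 were tested, 14 higher and 6 lower, and the median was 0.30 on the log2 scale. Their values ran from -0.99 for Nudt4 to 0.59 for Nudt1, beside 2.22 for Nudt5. No gene among the 20 was called by edgeR, 2 had an unadjusted p under 0.05, and DESeq2 called 1, Nudt4. Nudt4, a hydrolase of diphosphoinositol polyphosphates, stood at 120.5 and 143 FPKM in WT and 62.4 and 67.7 FPKM in KO, with no overlap (-0.99, SE 0.23, edgeR adjusted p = 0.201). Nudt9, the mitochondrial ADP-ribose hydrolase, stood at 26.2 and 24.4 FPKM in WT and 36.2 and 34.1 FPKM in KO (0.51, SE 0.20). Nudt14, the hydrolase of ADP-ribose and UDP-glucose most often set beside Nudt5, had a log2 fold change of 0.00 (SE 0.35). Nudt19 was at 0.45 (SE 0.20) and Nudt7, a peroxisomal coenzyme A hydrolase, at 0.39 (SE 0.25).

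**Figure D4:**
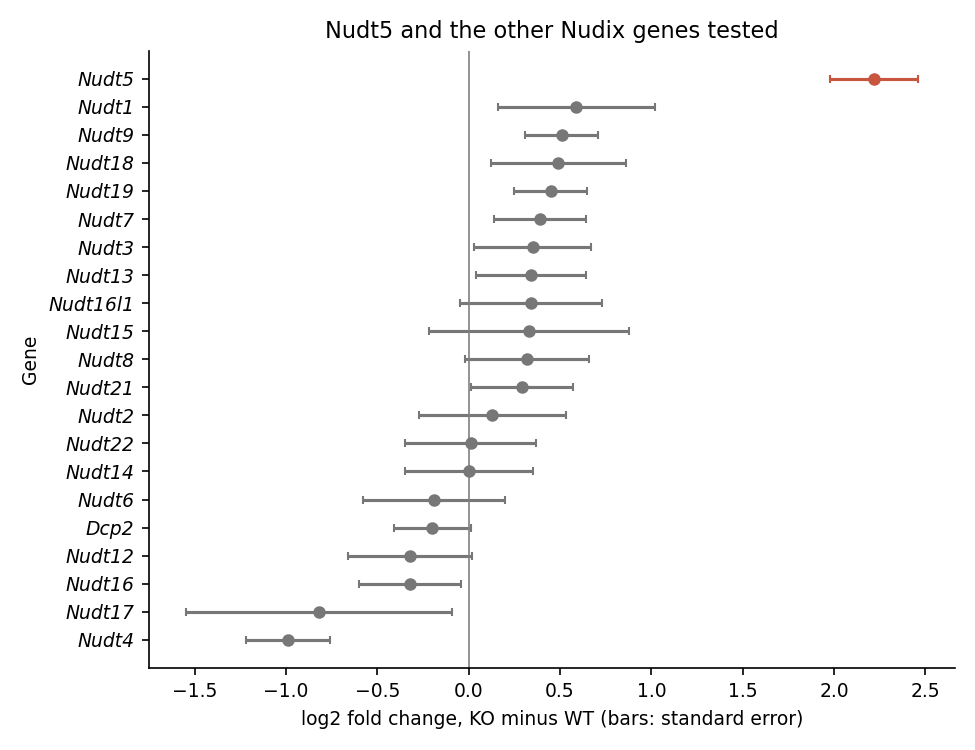
Log2 fold change, KO minus WT, of Nudt5 (red) and the 20 other Nudix genes tested (grey), with standard errors from edgeR as bars. Nudt5 lies at 2.22 and the nearest other gene, Nudt1, at 0.59.

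Genes of NAD+ metabolism, which make, use or convert the substrate of the PARP enzymes, lay on both sides of 0. Of 12 tested 7 had a higher and 5 a lower mean in KO. Their median was 0.21, and 0 were called by edgeR, by DESeq2 or at an unadjusted p under 0.05. Nampt, the rate-limiting enzyme of NAD+ salvage, was at 32 and 13.4 FPKM in WT and 30.5 and 29.4 FPKM in KO, so it was low in WT replicate 2 alone. Nmnat3 (log2 fold change 0.60, SE 0.33), Nadk2 (-0.38, SE 0.24), Naprt (-0.30, SE 0.19) and Nadsyn1 (0.23, SE 0.21) had the smallest p. In single-strand break repair, where Parp1 acts, 8 of 13 genes had a higher mean in KO, 5 a lower one, and the median was 0.12. Here too edgeR, DESeq2 and the unadjusted p gave 0 genes. Polb, the repair polymerase gene, had a log2 fold change of 0.72 (SE 0.34), Ung, the uracil glycosylase gene, -0.59 (SE 0.30), Fen1, the flap endonuclease gene, 0.40 (SE 0.23), and Xrcc1, the scaffold recruited by poly(ADP-ribose), 0.35 (SE 0.25).

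Transcription factors that carry interferon signals were higher in all 5 cases, with a median of 1.41 on the log2 scale. By CPM each KO library was above each WT library in all 5, an order seen in 25.5% of all genes tested. None passed the edgeR test over all genes. An unadjusted p under 0.05 in edgeR was reached by 4, against 7.08% of all genes marked higher. DESeq2 called 4, against 1.77% of its genes called higher. This list, like the others, was chosen with earlier results of these data known, so its counts are a description and not support. Irf9 stood at 9.79 and 14.2 FPKM in WT and 24.7 and 27.4 FPKM in KO (log2 fold change 1.13, SE 0.23, edgeR adjusted p = 0.18). Stat2 had a log2 fold change of 1.42 (SE 0.35) and Irf7 of 1.41 (SE 0.39). Over all 8 lists of related genes 76 were tested, 49 higher and 27 lower. None of the 76 was called by edgeR, whereas 8 had an unadjusted p under 0.05 (5 higher and 3 lower) and DESeq2 called 4 higher and 2 lower.

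Profiles over the 4 libraries were compared by the Euclidean distance of log2 CPM after the mean of each gene was subtracted, among 11250 genes with a mean FPKM of at least 1. The gene nearest to Parp14 was Stat2, at a distance of 0.155, followed by Celf5 (0.271), Helz2 (0.278), LOC547349 (0.283) and H2-T22 (0.286). Stat2 stood at 5.86 and 11.2 FPKM in WT and 18 and 27 FPKM in KO, with replicate 2 above replicate 1 in both genotypes, as for Parp14. Of the 10 genes Parp12 was the nearest to Parp14, in place 14, followed by Parp10 in place 54, Dtx3l in place 55 and Parp9 in place 110. Parp11 was in place 198 and Nudt5 in place 333. Parp1, Parp2 and Parp3 were in places 3440, 2991 and 8737. The gene nearest to Nudt5 was Irgm2, at 0.153, followed by Oas1c (0.211), Ifit2 (0.338), H2-T24 (0.41) and Slc5a4a (0.456). Irgm2, an immunity-related GTPase gene, stood at 3.77 and 4.73 FPKM in WT and 15.2 and 21.6 FPKM in KO. These likenesses rest on 4 libraries, in which all genes share the depth and cell content of each library, and are a description. The distance includes the difference between KO and WT, on which the 10 genes were partly chosen. The places of the 10 therefore restate that difference in part. The counts of H2-T22, H2-T24 and Oas1c may be uncertain, since these genes belong to families of similar copies among which reads can be split. Fractional expected counts were seen for LOC547349 (28.3 in WT replicate 1) and Irgm2 (1060.4 in KO replicate 2). Those of H2-T24 and Oas1c were whole at the precision kept.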

How the data were processed

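Polyadenylated RNA of 4 adenoma libraries was sequenced. Expected counts and FPKM per gene, 1 table for each library, were deposited by the authors, as the file headers name them. Bowtie2 2.2.5, RSEM 1.2.12 and the build mm10 appear in the submitters' processing notes, without their order. Tables were joined on gene identifiers with pandas 2.3.3. One row without a gene in each library, at most 2.33e-04% of the counts, was left out. Counts were rounded to whole numbers. The genotypes were compared by the edgeR 4.0.16 quasi-likelihood test (R 4.3.3) with TMM scaling, filterByExpr (12769 genes) and genotype as the only term, with Benjamini-Hochberg adjustment over all genes and a threshold of 0.05. The standard error is the log2 fold change over the root of F. With 2 residual degrees of freedom, the common dispersion gave a biological coefficient of variation of 32.5%. Since no label ties the libraries to separate animals, p-values measure only the spread between these libraries. The 2 libraries of each genotype differed in Xist and Ddx3y, so this spread includes that difference.

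The members, lists, motifs and alternatives were chosen with earlier results of these data known. The 10 genes and Strap are named in full, with the up to 4 genes of smallest p in each of 8 lists and the 5 genes nearest in profile to Parp14 and to Nudt5. Other list genes (Parg, H2afy, Nampt, Nudt14), the ends of the Nudix range (Nudt1) and the tested genes within 100 kb were added after values were seen. A result that falls under the rule is not reported here. The 10 marker lists covered epithelium, leukocytes, T and natural killer cells, B and plasma cells (2.66 to 12.5 CPM summed), macrophages and dendritic cells (19.9 to 31.2), neutrophils (1.84 to 4.04), fibroblasts, endothelium, colon and small intestine. Alternatives were DESeq2 1.42.0, its size factors in edgeR, scaling by library size alone, omitting the filter, a stricter one of 50 counts in 2 libraries, limma 3.58.1 on log2(FPKM + 1) and log2(FPKM + 0.1) for genes with a mean FPKM of at least 1, a replicate block and each library left out, with the genes tested kept and, added after seeing the data, with the filter redone. The fits were tested on simulated data.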

Additional observations from a re-analysis of the deposited data

How the results depend on the processing

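The log2 fold changes of the 10 genes were recomputed under 17 alternatives, 170 values in all, and 169 were above 0. The exception was Parp3, at -0.01 without KO replicate 2. Nudt5 ranged from 2.01 to 2.45, Parp14 from 1.0 to 1.82, Parp12 from 0.77 to 1.63, Parp10 from 0.83 to 1.15, Parp9 from 0.67 to 1.06 and Dtx3l from 0.44 to 1.16. Parp11 ranged from 0.22 to 0.98, Parp1 from 0.04 to 0.61, Parp2 from 0.07 to 0.35 and Parp3 from -0.01 to 1.84. The median over all genes lay between -0.07 and 0.02.

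Counts of calls moved more, and for the 10 genes, chosen with this comparison known, they are a description only. edgeR called 1 gene higher and 0 lower, 0 of the 10 genes and 0 of the 76 listed genes. With library size alone, and with limma on log2(FPKM + 0.1), the count higher was 0. Without a filter it was 19 higher and 8 lower, and Nudt5 was the 1 of the 10 called. DESeq2 called 235 higher and 432 lower, 5 of the 10 and 6 listed genes. Leaving out each library, with the 12769 genes tested kept, gave 0 to 41 higher and 0 to 133 lower, 0 to 1 of the 10 and 0 to 1 listed gene, and the upper ends came without WT replicate 2, where Nudt5 was called. With the filter redone on the 3 libraries left, an alternative chosen after seeing the data, the ranges were 0 to 72 higher, 0 to 300 lower, 0 to 2 of the 10 (Parp12 and Nudt5) and 0 to 3 listed genes, the upper ends again without WT replicate 2. Without each of the other 3 libraries 0 genes were called either way. A group left with 1 library is assumed to vary like the other. The cause of these shifts was not tested.

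The labels tie the replicate numbers to no litter or day, but in both genotypes they follow Xist and Ddx3y, so a block on them also separates the libraries by these sex-linked genes. The deviations of WT and KO replicates 1 from their group means correlated at -0.12 over genes. With the numbers as a replicate block edgeR called 46 higher and 70 lower, 1 of the 10 and 1 listed gene. A crossed pairing, chosen after seeing the data, gave 65 higher and 99 lower, 1 of the 10 and 1 listed gene.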
